A study of Mus musculus with 2 samples.

Results

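The genes described here encode chemokine receptors and other G protein-coupled receptors, the family of membrane proteins through which blood cells sense chemokines, nucleotides, lipids, acid and bacterial peptides. They were chosen by name, as symbols that begin with Ccr, Cxcr, Gpr and a digit, P2ry, S1pr, Lpar, Ptger, Adora, Fpr or Adrb and that have an overlapping region in the authors' table of H3K9ac regions, each gene standing for its strongest region. The rule found 53 of the 11006 genes with an overlapping region. Of these, 51 are receptors or receptor-like membrane proteins, while Adrbk2 (Grk3 in RefSeq) is a kinase that phosphorylates activated receptors and Gpr89 is a Golgi ion channel. H3K9ac, acetylation of histone H3 at lysine 9, marks promoters and other regulatory regions of active genes, and chromatin immunoprecipitation followed by sequencing counts the fragments that carry it.

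The cells came from the leukemic spleens of mice that carry the NUP98/HOXD13 fusion, a model of myeloid leukemia, with a human GFI1 cDNA in 1 of 2 forms. The 36S library is from the strain labelled Gfi1 36S/S-Nup98/HoxD13, and the 36N library from the strain labelled Gfi1 36N/N-Nup98/HoxD13. GFI1 is a transcriptional repressor that recruits histone deacetylases. The design sets H3K9ac in cells with its 36S form beside that in cells with its 36N form. Both genotypes carry the fusion, and there is no library without it. Each genotype had 1 library, so no difference has a replicate check, a difference between genotypes cannot be told apart from one between animals or precipitates, and no p-value is given. The sources used here give neither the age or number of animals behind a library nor the promoter that drives the fusion.

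Receptors of this family cross the membrane 7 times and pass a signal to heterotrimeric G proteins, which then raise or lower cyclic AMP, release calcium or activate PI3 kinases. Receptor kinases and arrestins end the signal, and RGS proteins speed the return of the G protein to rest. In blood and spleen, chemokine and sphingosine 1-phosphate receptors direct where leukocytes settle and when they leave, formyl peptide receptors guide neutrophils to bacteria, and adenosine and prostaglandin E receptors act mostly through cyclic AMP to dampen or shape inflammation.

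Depth set what could be seen. The 36S library held 4989632 reads in all 20615 regions and the 36N library 3292869. Receptor gene regions were weak: their median was 95 (36S) and 117 (36N) reads, against 309 and 207 over all genes with an overlapping region. Only 7 of the 53 reached the level of the median gene, and 39 had a mean of at least 50 reads. Differences are the deposited log2 value of 36N minus that of 36S, and each comes with a 95% interval of the 2 read numbers that covers counting error only. Where reads are given as a pair, the 36S library comes first. In the deposited values the median gene lay at −0.56, and strong regions lay lower than weak ones. The text therefore also gives the distance of a gene from the level trend, a smooth curve of the difference on the mean level over autosomal regions. In bulk cells, fewer cells of a type and less acetylation per cell cannot be told apart.

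As deposited, more receptor gene regions had a higher value in the 36N library than in the 36S library, against the general direction. Of the 53 genes, 31 lay above 0 (58.5%), compared with 26.1% of all genes, and their median was 0.17 (quartiles −0.39 and 0.65) against −0.56 (quartiles −0.83 and 0.04). By a size rule of 1 log2 unit (2-fold), 7 genes were higher in the 36N library (13.2%, background 7.41% of 11006 genes) and 4 were lower (7.55%, background 12.4%). The 7 higher genes were Gpr85, Gpr126, Gpr125, Gpr27, Gpr179, Adora2b and Gpr153, and the 4 lower ones were Gpr133, Lpar4, Ccrl2 and Ptger3. The counting interval lay above 0 at 15 of the 53 genes (background 14% of all genes), below 0 at 12 (background 62.2%) and included 0 at 26. The scaling moved this split. Relative to the median region, which lay at −0.40, 14 were higher (background 12.4%) and 3 lower (background 3.09%). From the level trend 8 were higher (background 8.84%), S1pr3 being added to the 7, and 2, Gpr133 and Lpar4, were lower (background 3.24%).

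The low level of these regions went with part of this pattern. All genes were divided by level into 4 classes of like size. In the weakest class, which held 27 of the 53, the receptor genes had a median of 0.27 against 0.36 for all genes of that class, and 70.4% of them lay above the trend against 65.9%. By the size rule 6 of the 27 were higher and 3 lower, against 687 and 206 of the 2752 genes of that class. In the next class, with 19 receptor genes, the median was 0.07 against −0.37 for 2751 genes, and 84.2% lay above the trend against 54.7%. In this class 1 of the 19 was higher and 0 lower, against 118 and 329 of the 2751. The class above it held 4 receptor genes (median −0.06 against −0.71) and the strongest class 3 (−0.83 against −0.75). Over all levels 39 of the 53 lay above the trend (73.6%, against 52.6% of all genes), with a median distance of 0.41 against 0.02. By these medians receptor genes lay above genes of like level in the 2 middle classes and slightly below them in the weakest and the strongest class. By the distance from the trend they lay slightly above them in the weakest class too, with medians of 0.41 and 0.36. These are descriptions of 2 libraries, with no test.

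**Figure D1:**
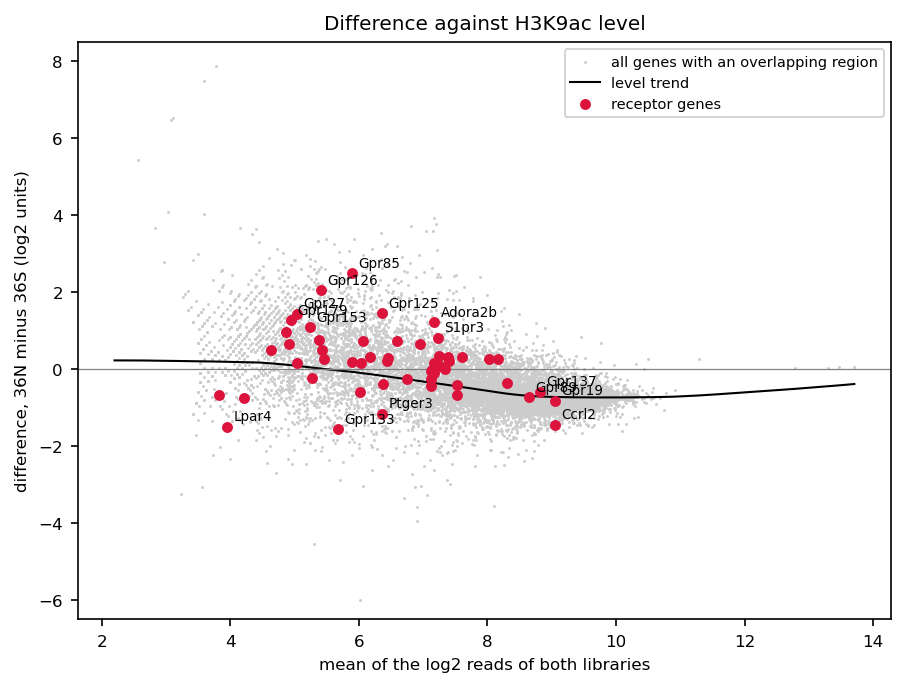
Each point is a gene at its strongest overlapping region, with the mean of the log2 reads of both libraries on the horizontal axis and the log2 difference, 36N minus 36S, on the vertical axis. Grey points are all 11006 genes, red points the 53 receptor and related genes, and the black line is the level trend; Gpr85, Gpr126, Gpr125 and Adora2b stand highest above the line, and Lpar4 and Gpr133 farthest below it.

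Where a region sits decides which gene it can speak for. RefSeq start sites (GRCm38.p6, the primary assembly of the files' build mm10) were at hand for 39 of the 53 genes, and the region covered such a start at 30 of them. At 5 genes the strongest region lay outside the RefSeq span of the gene that the table names. That of Ccr9 lies 49011 bp from the Ccr9 start and covers the start of Lztfl1. That of Adora3 lies 8471 bp from the Adora3 start, over Tmigd3, and those of Cxcr5, Fpr3 and Gpr31c, the last over the start of its neighbour Gpr31b, lie outside these genes in RefSeq as well. Gpr31b and Gpr31c are close copies, so the Gpr31c value is uncertain. Start sites of other genes also fall in the regions of Gpr137 (Bad), Gpr19 (2810454H06Rik), Gpr155, Gpr160 and Gpr125, and the Gpr27 region overlaps Eif4e3. At such regions the reads of the receptor gene and its neighbour cannot be told apart. Exon and intron positions were not used here.

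The sequences just before the start of 6 genes are shown because their regions cover that start and carry 4 of the largest distances above the trend and 2 of the lower values. Each is the 250 bases before the RefSeq start, 5′ to 3′ on the gene's strand. Capitals mark matches, on either strand, to AAATCA, the core of the site bound by GFI1, to GAGGAA, a core bound by ETS factors such as PU.1, or to TGACGTCA, the cyclic AMP response element; the matches shown do not overlap. The positions are chr10:14545037-14545286 on the minus strand for Gpr126, chr11:62248734-62248983 on the plus strand for Adora2b, chr5:50058997-50059246 on the minus strand for Gpr125, chr13:51408368-51408617 on the plus strand for S1pr3, chr9:111057245-111057494 on the minus strand for Ccrl2 and chr3:157566626-157566875 on the plus strand for Ptger3.
Gpr126: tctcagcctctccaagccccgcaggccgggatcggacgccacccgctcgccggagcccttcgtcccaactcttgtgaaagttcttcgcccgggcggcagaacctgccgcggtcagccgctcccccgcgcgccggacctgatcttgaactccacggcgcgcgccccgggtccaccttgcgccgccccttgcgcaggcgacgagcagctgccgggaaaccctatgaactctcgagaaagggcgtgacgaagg
Adora2b: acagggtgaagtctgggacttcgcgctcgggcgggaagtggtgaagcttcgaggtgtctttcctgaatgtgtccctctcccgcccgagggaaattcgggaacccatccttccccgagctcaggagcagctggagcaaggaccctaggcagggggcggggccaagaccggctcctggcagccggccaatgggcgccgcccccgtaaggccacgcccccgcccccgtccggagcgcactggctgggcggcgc
Gpr125: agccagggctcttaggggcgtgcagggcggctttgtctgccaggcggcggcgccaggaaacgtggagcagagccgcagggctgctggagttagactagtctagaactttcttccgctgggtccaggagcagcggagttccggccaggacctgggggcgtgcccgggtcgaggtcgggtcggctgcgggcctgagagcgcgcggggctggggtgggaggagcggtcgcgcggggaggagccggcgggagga
S1pr3: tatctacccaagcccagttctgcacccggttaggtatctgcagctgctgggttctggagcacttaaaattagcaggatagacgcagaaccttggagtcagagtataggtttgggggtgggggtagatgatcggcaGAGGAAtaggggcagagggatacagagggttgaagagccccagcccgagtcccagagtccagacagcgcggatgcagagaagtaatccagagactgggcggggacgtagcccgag
Ccrl2: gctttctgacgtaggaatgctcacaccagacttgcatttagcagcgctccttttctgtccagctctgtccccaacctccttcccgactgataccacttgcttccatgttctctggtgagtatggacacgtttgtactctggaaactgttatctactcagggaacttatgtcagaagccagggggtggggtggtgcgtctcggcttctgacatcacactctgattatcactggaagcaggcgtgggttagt
Ptger3: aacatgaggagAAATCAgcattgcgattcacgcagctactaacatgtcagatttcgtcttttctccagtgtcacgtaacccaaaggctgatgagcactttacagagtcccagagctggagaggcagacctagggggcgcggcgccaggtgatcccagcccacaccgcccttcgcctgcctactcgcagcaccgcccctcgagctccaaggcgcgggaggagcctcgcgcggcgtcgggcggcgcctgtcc
The 3 genes highest above the trend among these, Gpr126, Gpr125 and Adora2b, are rich in CpG, with 32, 25 and 22 CpG pairs in the 250 bases. S1pr3 has 9 and the Ccrl2 start 7, while Ptger3, which was lower in the 36N library, has 21. The only capitals are an AAATCA match in Ptger3 and a GAGGAA match in S1pr3.

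Over the 30 receptor genes whose region covers their start, the RefSeq window (250 bases before to 50 after the start) had a median CpG content of 0.64 observed over expected, below the 0.79 of the 6148 genes of all kinds with the same arrangement. The GC content was alike, with medians of 63.0% and 62.0%. Among the 30, windows at or above the median CpG content went with a median distance of 0.48 from the trend and those below it with −0.0016 (15 genes each). Pearson's r of CpG content with the distance from the trend was 0.45 and Spearman's rank correlation 0.42 over the 30 genes, all read from the same pair of libraries. Over the 6148 genes r was 0.02 and the rank correlation −0.02. AAATCA was found in 2 of the 30 windows (6.67%), those of Fpr1 and Ptger3, compared with 7.12% of the 6148 and 14% of all 32851 RefSeq windows. GAGGAA was found in 4 (13.3%, against 26.2% and 28.3%), those of Cxcr3, Fpr2, Gpr97 and S1pr3. TGACGTCA was found in 1, S1pr2 (3.33%, against 3.55% and 1.79%). A match is a description of letters, not of a bound site.

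Of the 5 chemokine receptor genes 4 lay below 0 and 4 below the trend, with a median difference of −0.68. Most genes of all kinds lay below 0 as well, with 26.1% above it and a median of −0.56, while 52.6% lay above the trend. Ccrl2, an atypical receptor that binds chemerin without signalling, was the strongest of them. It had 877 reads (36S) and 316 reads (36N) over 3 of its own start sites (chromosome 9, 111054451 to 111058650), a difference of −1.45 (−1.64 to −1.26) and a distance of −0.71 from the trend. This is a 2.72-fold higher value in the 36S library. The region given to Ccr9, the gut-homing receptor of T cells, had 234 and 143 reads at −0.68 (−0.99 to −0.38), but covers the Lztfl1 start. A weaker region inside Ccr9 had 33 and 26 reads at −0.32 (−1.12 to 0.47), so no difference was detectable there. Cxcr5, which guides B cells and helper T cells into follicles, had 95 and 71 reads in a region outside the RefSeq gene, at −0.39 (−0.86 to 0.065). In a region inside the gene it had 85 and 53 reads, at −0.65 (−1.18 to −0.14). Cxcr3, the receptor of activated T cells for interferon-induced chemokines, had only 18 and 11 reads (−0.68, interval −1.91 to 0.48). Ccr7, which leads T cells and dendritic cells to lymph nodes, had 21 and 29 reads and was alone above the trend (0.49, interval −0.37 to 1.38). Both intervals include 0.

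Markers of T cells lay lower in the 36N library, as did the chemokine receptor genes other than Ccr7. So did most genes of all kinds, of which 26.1% lay above 0 and 52.6% above the trend. Among the chemokine receptor genes other than Ccr7, the interval of the strongest region lay below 0 only at Ccrl2 and at the Ccr9 region that covers the Lztfl1 start. Of 11 T cell markers, 7 had an overlapping region, all 7 lay below the trend, and their summed reads were 1266 (36S) and 474 (36N). Themis had 313 and 59 reads and Lck 514 and 166 reads; no region overlapped Cd3e, Cd4, Cd6 or Cd8a. Of 8 B cell markers only 2 had a region, with 106 and 114 summed reads, and of 5 NK cell markers 1, with 74 and 80. The part of T cell content in the chemokine receptor values was not tested.

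Formyl peptide receptors, through which neutrophils and monocytes detect bacteria, differed in direction. Fpr1, the high-affinity receptor, had 80 and 52 reads (−0.59, interval −1.13 to −0.073), and Fpr2, which also binds resolving lipids and serum amyloid A, had 152 and 125 reads (−0.26, interval −0.61 to 0.10). Fpr3 had 21 and 40 reads (0.96, interval 0.16 to 1.79) in a region 60008 bp from its RefSeq start. The mouse Fpr genes are a cluster of close copies on chromosome 17, and the sources used here do not say how reads shared by copies were counted, so the Fpr values are uncertain. Granulocyte markers, 7 of 10 with a region, all lay above the trend and summed to 2919 (36S) and 2407 (36N) reads. Monocyte and macrophage markers, 7 of 9 with a region, summed to 1004 and 1416 reads, with 6 of the 7 above the trend. Of all genes 52.6% lay above the trend. The part of either cell type in the receptor values was not tested.

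Receptors for nucleotides and adenosine lay above the trend in all 6 cases, against 52.6% of all genes. The Adora3 region, which lies outside the RefSeq gene, was only just above it. P2ry1, the ADP receptor of platelets, was among the strongest regions, with 360 reads (36S) and 275 reads (36N) (chromosome 3, 61001701 to 61004250), a difference of −0.36 (−0.59 to −0.13) and a distance of 0.28 from the trend. P2ry2, an ATP and UTP receptor, had 150 and 182 reads (0.31, interval −0.014 to 0.63) and P2ry6, a UDP receptor, 62 and 68 reads (0.16, interval −0.36 to 0.68). Neither interval excluded 0, and P2ry2 and P2ry6 lay 0.72 and 0.27 above the trend. The adenosine receptors differed more from each other. Adora2b, a low-affinity receptor that raises cyclic AMP when adenosine is abundant, had 95 reads (36S) and 216 reads (36N) over its start site (chromosome 11, 62248801 to 62251650). Its difference was 1.21 (0.86 to 1.58), a 2.32-fold higher value in the 36N library, and it lay 1.58 above the trend. Adora2a, the high-affinity receptor that also raises cyclic AMP and restrains leukocytes, had 99 and 153 reads (chromosome 10, 75316501 to 75318150) at 0.65 (0.28 to 1.03). The region given to Adora3, which lowers cyclic AMP, had 212 and 156 reads at −0.42 (−0.72 to −0.11), and lies over Tmigd3. The intervals of Adora2a and Adora2b lay above 0 and that of the Adora3 region below it. The median of all genes was itself below 0, at −0.56. From the trend Adora2a lay at 0.97 and the Adora3 region at 0.036, so the latter lay close to genes of like level.

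All 4 sphingosine 1-phosphate receptor genes lay above the trend, against 52.6% of all genes. S1pr3 was the highest, with 113 reads (36S) and 195 reads (36N) over its start (chromosome 13, 51407701 to 51409800), a difference of 0.81 (0.47 to 1.16) and a distance of 1.20. S1pr5, which lets NK cells and patrolling monocytes leave bone marrow, had 52 and 85 reads (0.74, interval 0.22 to 1.26), in a region 3043 bp from its RefSeq start. S1pr2, which holds cells in place, had 263 and 307 reads (0.25, interval 0.0075 to 0.49), the only one of the 4 that reached the level of the median gene. S1pr1, the receptor by which lymphocytes leave lymphoid organs, had 149 and 135 reads (−0.12, interval −0.46 to 0.23), and its interval included 0. The other 3 intervals lay above 0.

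Lysophosphatidic acid receptors were split. Lpar1 had 80 and 95 reads (0.27, interval −0.17 to 0.72) and Lpar5, found on platelets and leukocytes, 118 and 96 reads (−0.27, interval −0.68 to 0.13), both with intervals that include 0. Lpar4, on the X chromosome, had 26 and 9 reads (−1.504, interval −2.78 to −0.36), the farthest of all below the trend at −1.69, on the smallest number of reads of any receptor gene in the 36N library. Ptger3 was the only prostaglandin E receptor gene with an overlapping region. It encodes EP3, which lowers cyclic AMP, and had 123 reads (36S) and 54 reads (36N) over its start (chromosome 3, 157566601 to 157568400), a difference of −1.16 (−1.65 to −0.69). A second region inside the gene had 47 and 23 reads, at −1.004 (−1.79 to −0.26). Both regions of Ptger3 were thus lower in the 36N library by 1 log2 unit or more.

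The proton-sensing receptor genes Gpr65 and Gpr132 had similar values. Gpr65, a receptor of lymphoid and myeloid cells that raises cyclic AMP in acid, had 157 and 179 reads (0.22, interval −0.10 to 0.53) and Gpr132, a sensor of acid and oxidised lipids, had 174 and 213 reads (0.32, interval 0.023 to 0.62). They lay 0.64 and 0.79 above the trend, and of the 2 intervals that of Gpr132 lay above 0.

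Adhesion receptors, which carry long extracellular parts that bind matrix or other cells, spanned the widest range of any family, from −1.57 to 2.04. Gpr126 (Adgrg6 in RefSeq), known for its role in Schwann cell myelination, had 21 reads (36S) and 85 reads (36N) over its start (chromosome 10, 14544751 to 14545800), a difference of 2.04 (1.34 to 2.81) and a 4.12-fold higher value in the 36N library. Gpr125 (Adgra3) had 50 reads (36S) and 133 reads (36N) (chromosome 5, 50058001 to 50059350) at 1.44 (0.96 to 1.94), a 2.71-fold higher value. Gpr124 (Adgra2), a receptor of brain endothelium that takes part in Wnt7 signalling, had 32 and 53 reads (0.75, interval 0.095 to 1.44). Gpr97 (Adgrg3), a receptor of granulocytes, had 136 and 148 reads (0.15, interval −0.20 to 0.50), and Gpr110 (Adgrf1) had 24 and 14 reads (−0.75, interval −1.82 to 0.26); neither interval excluded 0. Gpr133 (Adgrd1), described in acute myeloid leukemia and glioblastoma, stood at the opposite end, with 88 reads (36S) and 29 reads (36N) (chromosome 5, 129177901 to 129178800). Its difference was −1.57 (−2.23 to −0.95), a 2.98-fold higher value in the 36S library. A second region in the gene (chromosome 5, 129180901 to 129182250), with 95 and 18 reads, was at −2.37 (−3.19 to −1.64).

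The pair of SREB receptors with a region, orphan receptors best known from brain and among the most conserved in vertebrates, were both higher in the 36N library. Gpr85 had 25 reads (36S) and 138 reads (36N) (chromosome 6, 13838401 to 13839450), a difference of 2.49 (1.87 to 3.17) and a 5.62-fold higher value, the largest difference of the 53 genes. Its region lies 492 bp from the RefSeq start. Gpr27 had 20 reads (36S) and 53 reads (36N) (chromosome 6, 99692101 to 99693000), at 1.43 (0.67 to 2.25), in a region that also overlaps Eif4e3. Stem and progenitor markers, 6 of 6 with a region, all lay above 0, with 550 and 750 summed reads, and 3 of their intervals lay above 0. Their medians were 30.5 and 73 reads. Of all genes 26.1% lay above 0, and of those in the weakest level class 66.0%. The part of stem and progenitor cells in the values of the higher genes was not tested.

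Among the other Gpr genes, most of which are orphans, 13 of 14 lay above the trend, with a median distance of 0.41. Of all genes 52.6% lay above the trend, with a median distance of 0.02. In the weakest level class 65.9% did, with a median distance of 0.36. Gpr19 was the exception and, with Ccrl2, had the highest mean log2 level of the 53, with 710 reads (36S) and 392 reads (36N) (chromosome 6, 134896651 to 134899350) at −0.83 (−1.01 to −0.65), −0.10 from the trend. Gpr160 had 239 and 278 reads (0.24, interval −0.0099 to 0.50), 0.82 above the trend. Gpr153 was past 1 log2 unit with 26 and 54 reads (1.08, interval 0.38 to 1.82). Gpr179, a receptor-like protein of retinal bipolar cells, was past it too, with 20 and 47 reads (1.26, interval 0.48 to 2.09), but a second region in that gene had 33 and 19 reads and lay at −0.77, so the sign differed within the gene. Gpr3, which signals through cyclic AMP without a known natural ligand, had 81 and 92 reads (0.21, interval −0.24 to 0.66). Gpr35, a receptor of gut and immune cells for tryptophan metabolites, had 56 and 62 reads (0.17, interval −0.37 to 0.72). Gpr141, Gpr157 and Gpr180 had similar read numbers in both libraries, with 150 and 155 reads, 143 and 134 reads and 162 and 159 reads. They lay 0.47, 0.29 and 0.41 above the trend. Weaker still, Gpr31c, Gpr62, Gpr162 and Gpr176, had 24 to 40 reads in the 36S library and 34 to 50 in the 36N library, and all their intervals included 0.

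Membrane proteins of organelles that carry a Gpr name followed the trend more closely. Gpr89, the Golgi channel, had 516 reads (36S) and 303 reads (36N) (−0.74, interval −0.95 to −0.53), −0.041 from the trend. Gpr137, a lysosomal protein, had 556 and 361 reads (−0.60, interval −0.79 to −0.40), in a region shared with the start of Bad. Gpr155, a lysosomal cholesterol sensor, had 161 and 117 reads (−0.43, interval −0.79 to −0.081) and Gpr137c 42 and 35 reads (−0.24, interval −0.93 to 0.45). Gpr137b, which regulates mTORC1 at the lysosome, stood apart with 75 and 121 reads (0.72, interval 0.29 to 1.15), 0.95 above the trend. The receptor kinase gene Adrbk2 had 136 and 167 reads (0.32, interval −0.012 to 0.66), 0.71 above the trend, and its interval included 0.

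**Figure D2:**
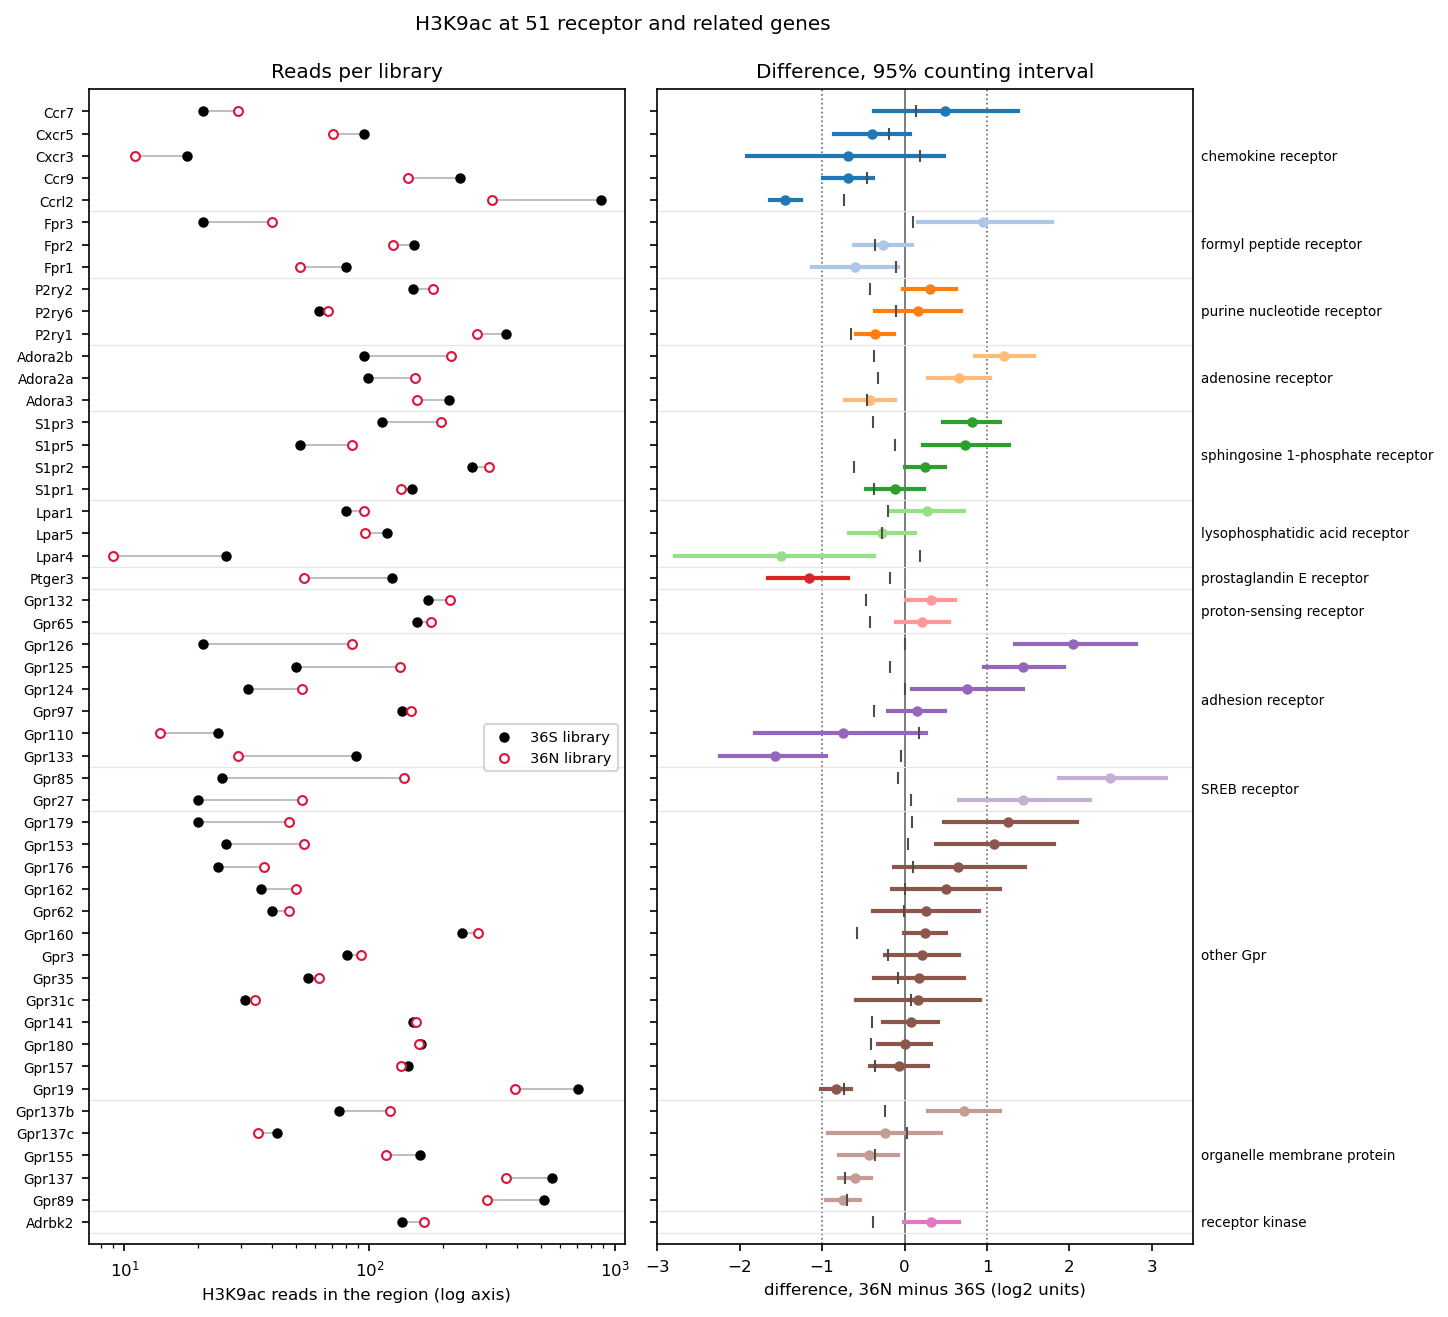
The left panel gives, for each of 51 of the 53 genes, the H3K9ac reads of its region in the 36S library (black) and the 36N library (red, open) on a log axis, and the right panel the log2 difference, 36N minus 36S, with its 95% counting interval, coloured by family. The short vertical marks show the level trend for each gene and the dotted lines 1 log2 unit; Gpr85 and Gpr126 lie highest, and Gpr133, Lpar4, Ccrl2 and Ptger3 lie below −1.

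Per kilobase of region, as the mean of both libraries, the levels ran from 38.9 reads per kb at Lpar4 to 210.0 at Gpr89. Gpr19 (204 reads per kb), Gpr137 (161), Gpr160 (144), Ccrl2 (142) and S1pr2 (136) followed Gpr89 in that order. The 4 genes farthest above the trend were in the lower or middle part of this range, with 77.6 reads per kb at Gpr85, 67.8 at Gpr125, 54.6 at Adora2b and 50.5 at Gpr126. Across the 53 genes Spearman's rank correlation of the mean level with the difference was −0.27 and Pearson's r −0.24; over all 11006 genes they were −0.53 and −0.54. These are read from the same pair of libraries, and the level enters both measures.

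Further regions give a view that the choice of the strongest region did not use. In 11 of the 53 genes there was a second overlapping region, and 7 of these 11 had the same sign as the strongest one. The 7 include Gpr180, whose strongest region had nearly equal values (162 and 159 reads). They also include Ccr9 and Cxcr5, whose strongest regions lie outside the RefSeq gene. The share of like signs over all genes was not computed. The 2 genes with both regions past 1 log2 unit were Gpr133 and Ptger3, both lower in the 36N library. Cxcr5 was lower in both regions, and Gpr97 and P2ry6 were above 0 in both, with intervals that include 0. Signs differed in 4 genes, among them Adora3, Gpr141 and Gpr179, of which Gpr179 had the widest gap.

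**Figure D3:**
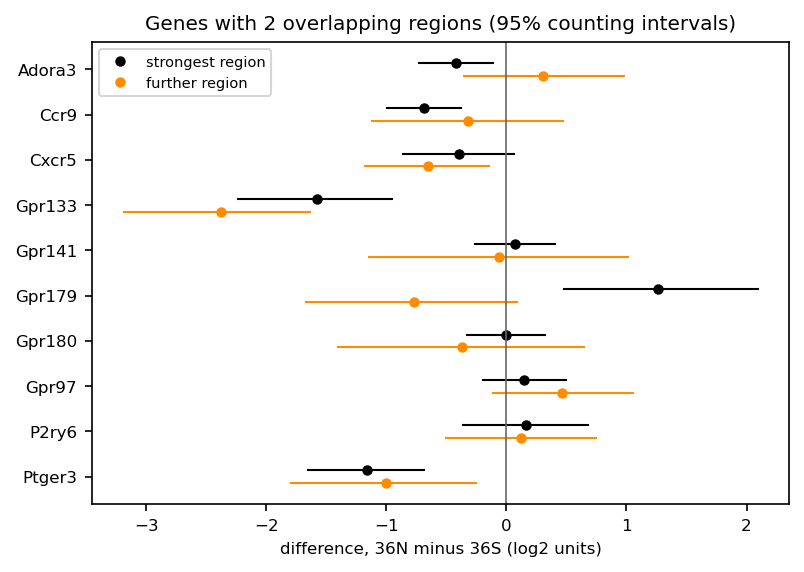
Of the 11 genes with 2 overlapping regions, 10 are listed on the vertical axis, with the log2 difference, 36N minus 36S, of the strongest region (black) and of the further region (orange) on the horizontal axis and 95% counting intervals as lines. Gpr133 and Ptger3 lie left of 0 with both regions, and Gpr179 has its regions on opposite sides of 0.

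The genes that make the ligands of these receptors and carry their signals were taken from lists drawn up by role. Over the 74 genes of these lists with an overlapping region the median difference was −0.26, between the 0.17 of the receptor genes and the −0.56 of all genes; by the size rule 7 were lower (background 12.4%) and 8 higher (background 7.41%). Their median distance from the trend was 0.073, against 0.41 for the receptor genes and 0.02 for all genes, and from the trend 3 were lower (background 3.24%) and 8 higher (background 8.84%). Chemokine ligands, 9 measured, were weak, with medians of 31 and 36 reads. Their median difference was 0.16, and their median distance from the trend 0.046. None was lower (background 12.4%) and 2 were higher (background 7.41%). In the weakest level class of all genes the median was 0.36, and 687 of 2752 were higher. The 2 higher ligands were Cxcl16, a membrane-bound ligand of CXCR6, with 21 and 59 reads (1.52, interval 0.78 to 2.31), and Ccl25, the ligand of CCR9, with 16 and 43 reads (1.45, interval 0.60 to 2.38). Ccl3, a macrophage inflammatory protein, with 104 and 89 reads (−0.20), and Cxcl2, a neutrophil attractant, with 33 and 29 reads (−0.16), were the lowest of the list. Of the other chemokine-type receptors 3 had a region. Darc, the Duffy antigen of red cells and venules (Ackr1 in current naming), had 195 and 72 reads (−1.41, interval −1.82 to −1.01). The chemerin receptor gene Cmklr1 had 70 and 40 reads (−0.78, interval −1.38 to −0.20). Cx3cr1, the fractalkine receptor, had 552 and 527 reads (−0.04, interval −0.22 to 0.13). From the trend these 3 genes lay at −1.11, −0.73 and 0.69. Erythroid markers, 6 of 11 with a region, summed to 2974 (36S) and 880 (36N) reads. They lay below 0, as Darc did, except Ank1, with 163 and 178 reads (0.15, interval −0.16 to 0.47). The part of erythroid cells in the Darc value was not tested.

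Enzymes that make or remove the lipid and nucleoside ligands lay on both sides, with 2 of 13 lower (background 12.4%) and 2 higher (background 7.41%). From the trend none of the 13 was lower (background 3.24%) and 2 were higher (background 8.84%). Sgpl1, the lyase that destroys sphingosine 1-phosphate, had 288 and 643 reads (1.19, interval 0.98 to 1.39), and Hpgd, which inactivates prostaglandins, 21 and 50 reads (1.28, interval 0.52 to 2.09). Mfsd2b, the sphingosine 1-phosphate exporter of red cells and platelets, had 615 and 214 reads (−1.496, interval −1.73 to −1.27) and Adk, adenosine kinase, 585 and 275 reads (−1.06, interval −1.27 to −0.85). Megakaryocyte markers, 4 of 6 with a region, summed to 798 and 424 reads, and their part, like that of erythroid cells, was not tested for Mfsd2b.

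Downstream of the receptors, 1 of 10 effector genes was lower by the size rule (background 12.4%) and 2 were higher (background 7.41%). From the trend 1 was lower (background 3.24%) and 2 were higher (background 8.84%). Of the 3 phospholipase C beta genes 2 had the highest values of the effector list, while the other, Plcb3, lay at −0.59. Plcb4 (chromosome 2, 135658501 to 135660150) had 28 and 253 reads (3.20, interval 2.64 to 3.82). Plcb1 (chromosome 2, 134785801 to 134787150) had 20 and 134 reads (2.77, interval 2.09 to 3.53). These regions are near each other on the same chromosome, and whether their values are separate changes was not tested. Both lay far above the other 8 measured effector genes. Those 8 ran from Pik3cg, the PI3 kinase that answers G protein beta-gamma, with 444 and 210 reads (−1.05, interval −1.30 to −0.81), and Arhgef1, a guanine nucleotide exchange factor with only 18 and 9 reads (−0.97, interval −2.31 to 0.26), up to Pik3r6 at 0.50. Among 12 genes with an Rgs symbol, including those of the binding proteins Rgs9bp and Rgs7bp, 2 were lower (background 12.4%) and 1 higher (background 7.41%). From the trend 1 was lower (background 3.24%) and 1 higher (background 8.84%). The lower genes were Rgs6, with 193 and 65 reads (−1.54, interval −1.97 to −1.13), and Rgs12, with 653 and 254 reads (−1.34, interval −1.55 to −1.12). Rgs12 lay −0.63 from the trend, short of the size rule. Rgs16 was higher, with 14 and 33 reads (1.26, interval 0.32 to 2.28), followed by Rgs9 with 14 and 26 reads (0.92). The 9 genes named as G protein beta and gamma subunits include Gnb1l, a WD-repeat protein that resembles the beta subunit. Of the 9 only Gnb5, with 57 and 134 reads (1.26, interval 0.80 to 1.73), passed 1 log2 unit (background 7.41% higher, 12.4% lower). Gng2, with 166 and 202 reads, came next at 0.31, and Gng3 (−0.92) and Gnb1l (−0.68) were the lowest. Of the 3 GRK and arrestin genes with a region 1 was lower by the size rule (background 12.4%). It was Grk6 at −1.11 (−1.28 to −0.94), while Arrb1 lay at −0.83 (−1.03 to −0.63) and Grk5 at −0.72 (−0.95 to −0.49). From the trend they lay at −0.37, −0.11 and −0.067, and none passed the size rule. None of 15 adenylyl cyclase and cyclic AMP genes passed 1 log2 unit (background 12.4% lower, 7.41% higher), and their median was −0.66. Their median distance from the trend was 0.045, with 8 of 15 above it, so they lay close to genes of like level. They ran from Pde4d (−0.93) and Adcy7 (−0.87) to Prkar2a (0.39) and Adcy3 (0.89). The lists were drawn up with earlier results of these data known and are given as counts, with no test.

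**Figure D4:**
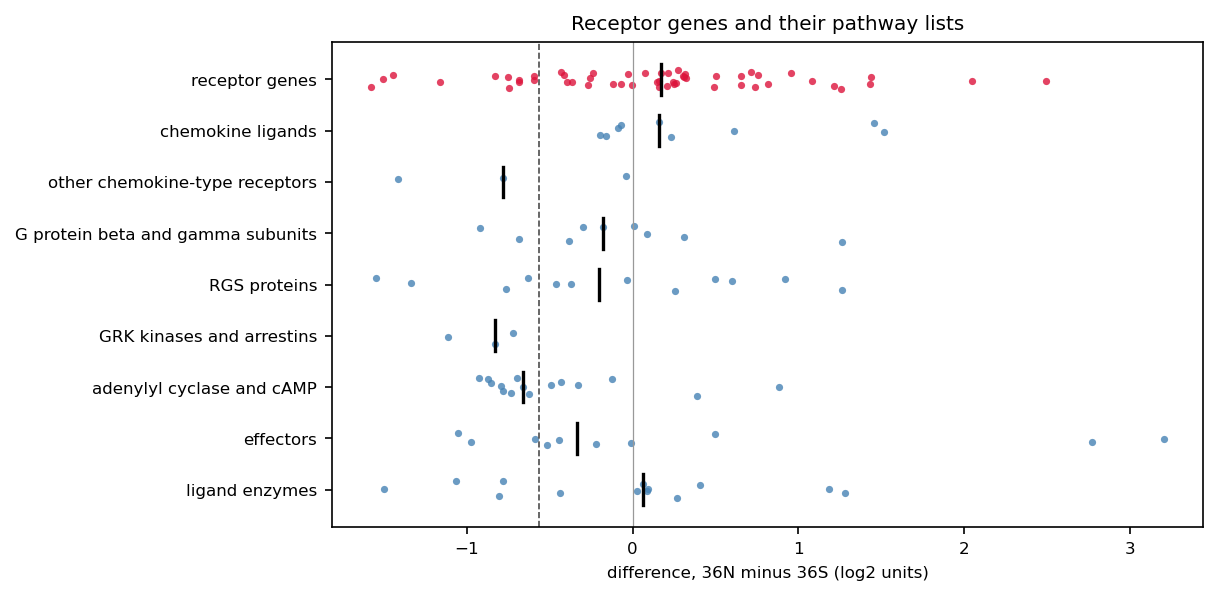
Each point is a gene with an overlapping region, placed by its log2 difference, 36N minus 36S, in the row of its list; red points are the 53 receptor and related genes, and vertical spread within a row has no meaning. Black bars mark the median of each list and the dashed line the median of all genes at −0.56; the receptor genes have their median at 0.17 and the adenylyl cyclase and cyclic AMP list has its median at −0.66.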

How the data were processed

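H3K9ac was measured in 2 libraries of leukemic mouse spleen cells, after red cell lysis, formaldehyde fixation (0.4%) and 20 min of sonication. In the table the authors deposited, each region has a log2 value for each library. Per the submitters' processing notes, STAR 2.5.0c, CASAVA 1.8.2 and SAMtools were used and the build is mm10, with no roles stated. The sources used here do not say how regions were called or counted, or whether an input was used. Taken to the power of 2, all values were whole reads within 0.01 (36S) or whole multiples of 1.02 (36N, a constant of unstated meaning); 13 regions of the 36S library share a floor of 0.9 that stands for 0. Values were not divided by length.

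For each gene the overlapping region with the highest mean of both columns was used, leaving out 10 symbols turned into dates. The members and lists were chosen with earlier results of these data known. Intervals are exact conditional (Clopper-Pearson) at 95% and cover counting error only. The trend is a lowess fit (fraction 0.3, autosomes; statsmodels 0.14.6, Python 3.11.15), tested on simulated data. The text names members past 1 log2 unit, the 10 strongest and members of each family, and the 2 highest and 2 lowest genes of each pathway list; the remaining members were named after their values were seen. All 53 members matched RefSeq (GRCm38.p6) by symbol or synonym. Values of 2 members and some other genes are not reported here, though the counts include them. Alternatives changed scaling, region choice, filters and size.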

Additional observations from a re-analysis of the deposited data

How the results depend on the processing

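The median difference of the 53 genes, 0.17, was 0.57 relative to the median region, 0.41 from the level trend, −0.60 among the 7 genes that reach the level of the median gene and 0.037 among the 30 whose region covers their own start (chosen after seeing the data). The count of genes lower by 1 log2 unit or more, 4, was 2 from the trend, 1 among those 7 and 11 with 1.5-fold as the size. The count of higher genes, 7, was 14 relative to the median region, 14 with 1.5-fold as the size, 4 with a mean of at least 50 reads, 0 among those 7 and 4 among genes whose region covers their own start. For the sign change and the other shifts the cause was not tested. The mean over a gene's regions, regions in any orientation, leaving out Adrbk2 and Gpr89, and regions inside the RefSeq span or away from other starts (both chosen after seeing the data) moved the median by less than 0.1 and no count by over 1.5 times. No paired analysis was possible because each genotype has 1 library. Depth limits the weak regions most: the counting interval included 0 at 26 of the 53 genes.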

Other observations

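Besides the 53 genes, 15 symbols that match the names were given only regions beside the gene, 18 regions in all, and the link of such a region to the receptor is less sure. Set against RefSeq, the orientation in the authors' deposited table says where the gene lies relative to the region, so that a region listed with an upstream gene lies beyond that gene's 3′ end. Ccr1, a receptor of monocytes and neutrophils for inflammatory chemokines, was given a region 35276 bp beyond its 3′ end with 1219 and 853 reads (−0.49, interval −0.62 to −0.36), more reads than at any of the 53 genes. That region covers the start of another gene, Gm51701, and the reads cannot be told apart. The region 20000 bp before Ccr2, the receptor that brings monocytes out of bone marrow, had 210 and 201 reads (−0.037, interval −0.32 to 0.25). That given to Cxcr4, the receptor that keeps stem cells in marrow, had 90 and 71 reads (−0.32, interval −0.79 to 0.15) and lies 26199 bp beyond its 3′ end. Neither of these intervals excluded 0. Gpr84, a receptor for medium-chain fatty acids on myeloid cells, had 264 and 179 reads in a region 2036 bp beyond its 3′ end (−0.53, interval −0.82 to −0.25).

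By the size rule, 2 of these 18 regions were lower in the 36N library and 2 higher, against 15.5% and 7.3% of all 4630 regions that the table places outside genes. Among the lower ones, a region 8997 bp before Gpr98, a very large adhesion receptor, had 55 and 22 reads (−1.30, interval −2.08 to −0.56). Lpar3, a lysophosphatidic acid receptor, was given a region 6961 bp before its start with 17 and 46 reads (1.46, interval 0.63 to 2.36). Far beyond its 3′ end, at 45837 bp, another had 19 and 43 reads and was also past 1 log2 unit.

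The 53 genes had 19 more regions outside their bodies, of which 6 were higher in the 36N library by the size rule and none lower, against the same 7.3% and 15.5%. All 6 were weak, and in the weakest level class of genes 687 of 2752 were higher by that rule. Near Lpar1 a region 11455 bp beyond the 3′ end had 16 and 62 reads (1.98, interval 1.17 to 2.87) and a region 32203 bp before the start 12 and 27 reads, while the region over the gene was at 0.27. Near Gpr132 a region 9626 bp beyond the 3′ end had 36 and 96 reads (1.44, interval 0.88 to 2.04). Near Gpr110 a region 2164 bp beyond the 3′ end had 8 and 41 reads (2.38, interval 1.27 to 3.69) and a region 36879 bp before the start 27 and 61 reads, against −0.75 over the gene. Near Gpr180 a region 15819 bp beyond the 3′ end had 27 and 64 reads (1.27, interval 0.60 to 1.98). Each of these 6 regions held fewer than 40 reads in the 36S library.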
